A study of Mus musculus with 6 samples.

Results

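The genes described here are 10 regulators of the G1 phase of the cell cycle, measured in mouse CD8+ T cells. They were chosen by name: the D-type cyclins *Ccnd2* and *Ccnd3*, the kinases *Cdk4* and *Cdk6*, the E-type cyclins *Ccne1* and *Ccne2*, and the CDK inhibitors *Cdkn1a* (p21), *Cdkn1b* (p27), *Cdkn2c* (p18) and *Cdkn2d* (p19). All 10 were found among the 54446 genes in the files, and all 10 passed the minimum of 1 FPKM on average that left 14991 genes to test. RNA-Seq was performed on 6 libraries, 2 in each of 3 groups, of CD8+ T cells from spleens of 8 week old wild type C57BL/6 mice. The Unstimulated group held fresh cells. The Control group was cultured for 72 h on plate-bound antibodies to CD3 and CD28 with no magnet, and the SMF group received the same stimulation on permanent magnets of 0.3 T (SMF, static magnetic field). Cells were purified by negative selection, which leaves behind the cells that the depleting antibodies missed. No source used here ties the replicates to separate mice, so the p values measure the spread between these libraries only.

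Cells leave quiescence and enter the cell cycle through G1. D-type cyclins bind CDK4 and CDK6 and E-type cyclins bind CDK2, and these kinases phosphorylate the retinoblastoma protein and its relatives, which releases E2F factors to transcribe the genes of S phase. The INK4 inhibitors, among them p18 and p19, bind CDK4 and CDK6 alone, whereas p21 and p27 bind complexes of cyclin and CDK. A resting T cell is known for high p27, and stimulation through the T cell receptor and CD28 induces D-type cyclins and lowers p27, in large part through protein turnover, which RNA does not show.

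Levels are given as FPKM, fragment numbers that StringTie divides by transcript length and by library size, so levels of different genes can be set side by side. Differences between groups are log2 fold changes of FPKM + 1, which understate the change of genes near 0, with the standard error (SE) of limma's fit to the 3 groups together. A gene was called higher or lower at the thresholds of the study, an unadjusted p up to 0.05 in limma together with a change of 2-fold or more. Adjusted p values, printed below, are Benjamini-Hochberg values over all 14991 genes, so a called gene can have an adjusted p above 0.05. The files hold no read counts, so no counting interval can be given, and a gene without signal is reported as listed at 0.

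Covered bases, the depth that the files allow, ranged from 64.4 to 258.6 Mb, lowest in Unstimulated and Control replicate 1 and highest in the SMF libraries. The file headers name a folder of June 2017 for replicate 1 of Unstimulated and Control, a folder of November 2017 for replicate 2 of both, and a folder of October 2018 for both SMF libraries. The field and the folder therefore cannot be told apart in any comparison with SMF. The 7 CD8 T cell markers summed to 688 and 823 FPKM in Unstimulated, 459 and 600 FPKM in Control and 973 and 845 FPKM in SMF. In SMF against Control 2 of the 7 were called higher, *Cd8a* by 2.01 and *Cd3d* by 1.40 on the log2 scale, and in Control against Unstimulated *Cd8a* (-1.08) and *Cd8b1* (-1.31) were called lower and *Cd28* (1.76) higher. Their part in the results of these comparisons was not tested. The defining *Cd3e* and *Cd8a* ranged from 35.5 to 192 FPKM over the 6 libraries, while *Cd4* was at most 4.68 FPKM. Among the other CD4 T cell markers, *Zbtb7b* was at most 2.54 FPKM, but *Foxp3* was at 4.92 to 20.7 FPKM. Most markers of other cells moved with the Unstimulated group. The 6 B cell markers summed to 172 and 122 FPKM in Unstimulated, 23.3 and 8.46 FPKM in Control and 4.85 and 2.71 FPKM in SMF, and all 6 were called lower in both stimulated groups, with 1 of them, *Cd79a*, lower in SMF against Control as well (-1.78). The 6 myeloid markers summed to 140 and 156 FPKM in Unstimulated against 47 to 53.8 FPKM in the stimulated libraries, where *Lyz2* was listed at 0 and most of the sum was *Csf1r*. *Cd68* was at 6.41 and 0.89 FPKM in SMF and listed at 0 in Control, and was called higher in SMF against Control (adjusted p = 0.228 in limma). Of 3 NK cell markers, *Ncr1* and *Klrb1c* were above 0 in Unstimulated alone. Of 6 erythroid markers 3 were listed at 0 in every library. *Alas2* was at 18.3 and 16.3 FPKM in Unstimulated, 5.21 and 7.16 FPKM in Control and 10.1 and 1.51 FPKM in SMF. It was called lower in SMF against Unstimulated (-1.79, adjusted p = 0.126 in limma). The 3 CD4 T cell markers summed to between 12.1 and 25 FPKM. The part of these cells in each result against Unstimulated was not tested. In bulk RNA, fewer cells of a type and less RNA per cell cannot be told apart.

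**Figure D1:**
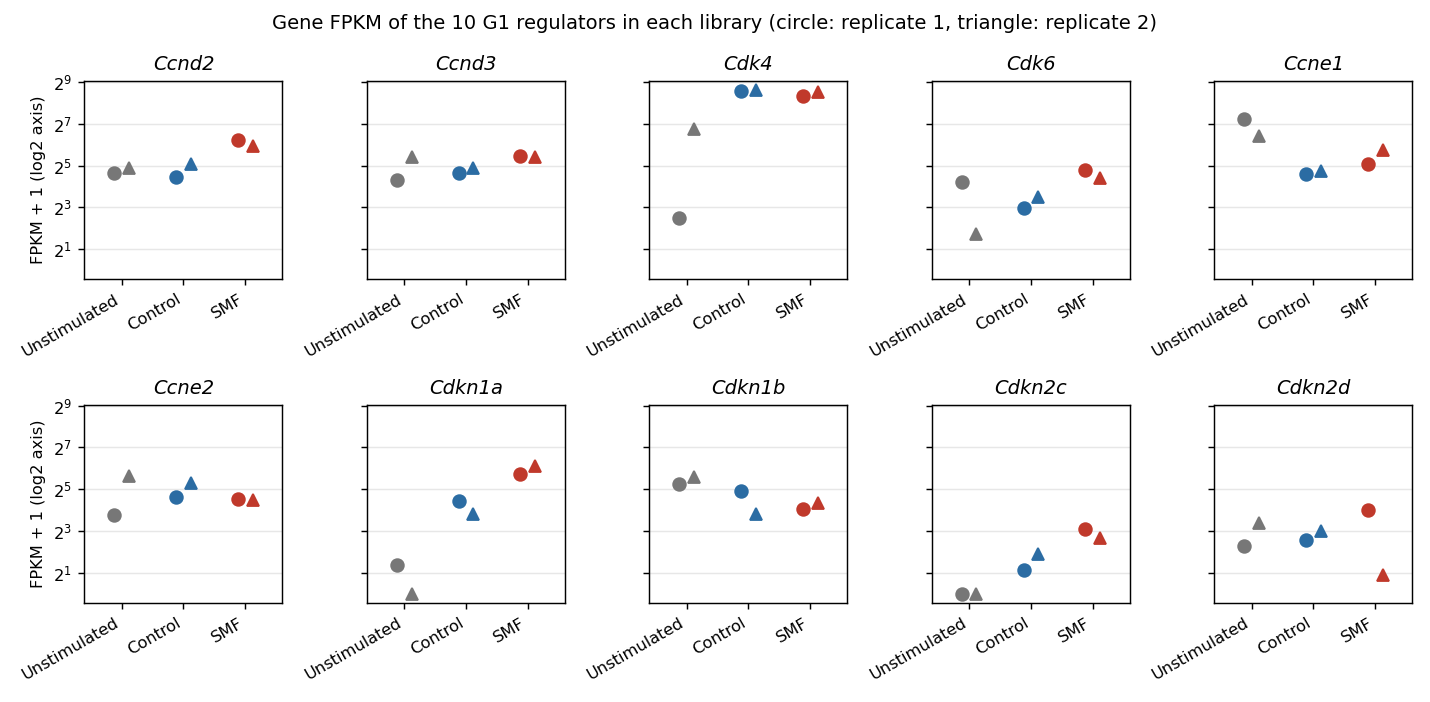
Gene FPKM + 1 on a log2 axis for each of the 10 G1 regulators, with circles for replicate 1 and triangles for replicate 2 of the Unstimulated (grey), Control (blue) and SMF (red) groups. *Cdk4* and *Cdkn1a* lie higher in all 4 stimulated libraries than in both Unstimulated libraries, *Ccne1* lies lower, and *Ccnd2* is higher in both SMF libraries than in the other 4.

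*Ccnd2* and *Ccnd3* encode cyclins D2 and D3, the D-type cyclins that lymphocytes mainly use. *Ccnd2* (ENSMUSG00000000184.12; GRCm38 chromosome 6, 127125162 to 127152193, minus strand) was at 23.9 and 28.9 FPKM in Unstimulated, 20.97 and 32.3 FPKM in Control and 72.8 and 59.9 FPKM in SMF. The SMF libraries were the highest of the 6, while the Unstimulated and Control values overlapped. *Ccnd2* rose in SMF against Control by a log2 fold change of 1.31 (SE 0.34, adjusted p = 0.155 in limma) and in SMF against Unstimulated by 1.3 (adjusted p = 0.0404 in limma). Between Control and Unstimulated the log2 difference was -0.01, with a 95% interval of -0.84 to 0.81, and within the shared folders it was -0.18 for replicate 1 and 0.15 for replicate 2. The rise in SMF against Control stayed past both thresholds when any of the 6 libraries was left out, with log2 values from 1.01 to 1.61. It ended at a log2 fold change of 0.97 (adjusted p = 0.213 in limma) once all libraries were shifted to the same median, since the median gene was itself 0.32 higher in SMF than in Control, and at 0.82 (adjusted p = 0.347) when only the most abundant transcript, ENSMUST00000000188.11, was used. That transcript was at 33.6 and 48.9 FPKM in SMF against 17.9 and 28.4 FPKM in Control, and a short coding transcript of 1006 bases added 37.9 and 9.35 FPKM in SMF against 0 and 2.48 FPKM in Control. The gene *Gm43126* lies on the opposite strand, shares 372 exon bases with *Ccnd2* and was at 646.5 to 1702 FPKM, far above *Ccnd2* in all 6 libraries. It was lowest in the SMF libraries.

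*Ccnd3* (ENSMUSG00000034165.16; chromosome 17, 47505051 to 47599691, plus strand) was at 19.1 and 41.5 FPKM in Unstimulated, 24.3 and 28.5 FPKM in Control and 43.0 and 41.9 FPKM in SMF. The SMF libraries were above all others, but by a narrow margin over Unstimulated replicate 2. No comparison called *Ccnd3*: the log2 difference was -0.10 (95% interval -1.12 to 0.92) between Control and Unstimulated, 0.57 (-0.45 to 1.59) between SMF and Unstimulated and 0.67 (-0.35 to 1.69) between SMF and Control. Unstimulated cells carried a larger share of *Ccnd3* in transcripts that do not code for protein, since coding transcripts made up 60.7% and 50.5% of it there and 89.3% to 96.7% in the stimulated libraries. With coding transcripts alone, *Ccnd3* was at 11.6 and 20.99 FPKM in Unstimulated and 40.02 and 40.5 FPKM in SMF, and was called higher in SMF (log2 fold change 1.31, adjusted p = 0.0569 in limma). This way of summing was chosen after the values had been seen. *Bysl*, on the opposite strand with 361 shared exon bases, was at 104 to 173 FPKM, above *Ccnd3* in every library.

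The kinases CDK4 and CDK6 are the partners of the D-type cyclins. *Cdk4* (ENSMUSG00000006728.12; chromosome 10, 127063534 to 127067920, plus strand) was the most abundant of the 10 in every stimulated library. The 250 bases before its start site are shown because they hold a repeated E-box, CACGTG, the word bound by MYC with its partner MAX, and because the differences of *Cdk4* from Unstimulated were among the widest of the 10 genes. The sequence is that of RefSeq on GRCm38.p6, chr10:127063285-127063534, plus strand, 5′ to 3′, with each CACGTG in capitals.
*Cdk4* promoter: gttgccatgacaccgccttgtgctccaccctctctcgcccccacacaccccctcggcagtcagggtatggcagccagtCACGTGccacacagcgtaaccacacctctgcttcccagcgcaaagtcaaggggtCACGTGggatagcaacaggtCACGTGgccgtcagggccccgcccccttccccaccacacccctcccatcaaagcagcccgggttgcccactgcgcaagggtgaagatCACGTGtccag
The word occurs 4 times, starting 172, 118, 98 and 11 bases before the start site. It reads the same on both strands. The search covered the 250 bases before the start site and left out the 50 bases of each RefSeq window past it. Of 32851 windows in the table, 6.02% held CACGTG in the bases searched and 7 held it at least 4 times. Windows were present for 8 of the 10 genes, *Ccnd2* and *Ccne2* having none in the table. *Cdk6* held the word once. The FOXO word GTAAACA, searched on both strands, was found once in *Ccnd3* and in 3.17% of all windows. The E2F words TTTCCCGC, TTTCGCGC, TTTGCCGC and TTTGGCGC were found in none of the 8 genes and in 1.86% of all windows. These matches describe the letters only.

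*Cdk4* was at 4.61 and 105 FPKM in Unstimulated, 379 and 389.6 FPKM in Control and 322 and 360.4 FPKM in SMF. All 4 stimulated libraries were far above both Unstimulated libraries, and the Unstimulated libraries differed between themselves by 4.23 on the log2 scale. *Cdk4* rose in Control against Unstimulated by a log2 fold change of 3.98 (SE 1.22, adjusted p = 0.0996 in limma) and in SMF against Unstimulated by 3.81 (SE 1.22, adjusted p = 0.0686 in limma). Within the shared folders Control exceeded Unstimulated by 6.08 for replicate 1 and by 1.89 for replicate 2 on the log2 scale. The size depended on the Unstimulated library used. Without Unstimulated replicate 1 the log2 fold change was 1.87 in Control (adjusted p = 0.025 in limma) and 1.69 in SMF (adjusted p = 0.0238 in limma), and without Unstimulated replicate 2 it was 6.10 and 5.93. Both calls ended when any SMF or Control library was left out (adjusted p = 0.172 to 0.327 in limma), while the log2 fold changes stayed between 3.73 and 4. In Unstimulated replicate 1 the files list the full-length coding transcript, ENSMUST00000006911.11, at 0, and *Cdk4* had 0.4 kb of covered bases against 35.1 kb in replicate 2 and 64.0 kb in Control replicate 1, a library of similar depth. SMF and Control differed by -0.17, with a 95% interval of -3.14 to 2.79, and the fit shares 1 spread per gene over the 3 groups, to which the Unstimulated pair contributed most. *Tspan31*, on the opposite strand with 641 shared exon bases, was at 28.3 to 58.1 FPKM.

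*Cdk6* (ENSMUSG00000040274.11; chromosome 5, 3341485 to 3531008, plus strand) was at 17.5 and 2.27 FPKM in Unstimulated, 6.73 and 10.2 FPKM in Control and 26.3 and 20.3 FPKM in SMF. Both SMF libraries were above the other 4, and the Unstimulated pair enclosed the Control pair. *Cdk6* passed no call: SMF exceeded Control by 1.37 on the log2 scale (SE 0.81, adjusted p = 0.376 in limma) and Unstimulated by 1.63 (adjusted p = 0.193 in limma), and Control exceeded Unstimulated by 0.26 (95% interval -1.72 to 2.24). Within folders the last difference was -1.26 for replicate 1 and 1.78 for replicate 2. The size depended on the Unstimulated library used. Without replicate 1 SMF and Control were both called higher than Unstimulated, by 2.88 (adjusted p = 0.0506 in limma) and 1.51 (adjusted p = 0.18 in limma), and without replicate 2 the differences were 0.38 and -0.99. With either of them left out, SMF was called higher than Control (1.37, adjusted p = 0.198 and 0.186 in limma). The full-length coding transcript of 11525 bases was at 0.047 and 2.27 FPKM in Unstimulated, 4.83 and 7.17 FPKM in Control and 10.2 and 10.4 FPKM in SMF. The 17.5 FPKM of Unstimulated replicate 1 thus lay almost wholly in shorter transcripts. *Gm17590*, on the opposite strand with 368 shared exon bases, was at 0 to 15.5 FPKM.

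*Ccne1* and *Ccne2* encode cyclins E1 and E2, which activate CDK2 late in G1. *Ccne1* (ENSMUSG00000002068.16; chromosome 7, 38097984 to 38107534, minus strand) was at 148 and 83.4 FPKM in Unstimulated, 22.8 and 25.5 FPKM in Control and 32.3 and 52.0 FPKM in SMF. Both Unstimulated libraries were above all stimulated libraries, and both SMF libraries above both Control libraries. *Ccne1* fell in Control against Unstimulated by 2.16 on the log2 scale (SE 0.40, adjusted p = 0.0296 in limma), with -2.65 and -1.67 in the folders of replicates 1 and 2, and in SMF against Unstimulated by 1.42 (SE 0.40, adjusted p = 0.0486 in limma). The call in SMF ended without Unstimulated replicate 1 (-1.01, adjusted p = 0.185 in limma) and without SMF replicate 1 (-1.08, adjusted p = 0.233 in limma). SMF exceeded Control by 0.74 (adjusted p = 0.335 in limma).

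The excess in Unstimulated cells lay mostly in 1 short transcript, ENSMUST00000128785.1, a retained-intron transcript of 628 bases. It was at 91.7 and 48.9 FPKM in Unstimulated, 11.5 and 0 FPKM in Control and 6.32 and 1.19 FPKM in SMF. Of its 628 bases, 324 lie outside every exon of the coding *Ccne1* transcripts, at chr7:38098668-38098991 within the gene. The 120 bases of it next to the coding exon are shown from GENCODE M21 on GRCm38, chr7:38098872-38098991, minus strand, 5′ to 3′, all in lower case because no motif is marked.
*Ccne1* retained intron: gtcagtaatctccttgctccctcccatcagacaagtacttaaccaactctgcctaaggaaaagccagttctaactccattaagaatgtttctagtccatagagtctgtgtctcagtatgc
Coding transcripts made up 30.7% and 35.7% of *Ccne1* in Unstimulated, 49.6% and 61.0% in Control and 73.7% and 87.7% in SMF. With coding transcripts alone, *Ccne1* was at 45.4 and 29.8 FPKM in Unstimulated, 11.3 and 15.5 FPKM in Control and 23.8 and 45.6 FPKM in SMF. On this measure, chosen after the values had been seen, it was still called lower in Control against Unstimulated (-1.41, SE 0.42, adjusted p = 0.137 in limma), no longer differed past the thresholds between SMF and Unstimulated (-0.15, adjusted p = 0.833 in limma), and was called higher in SMF against Control (1.25, SE 0.42, adjusted p = 0.221 in limma).

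**Figure D2:**
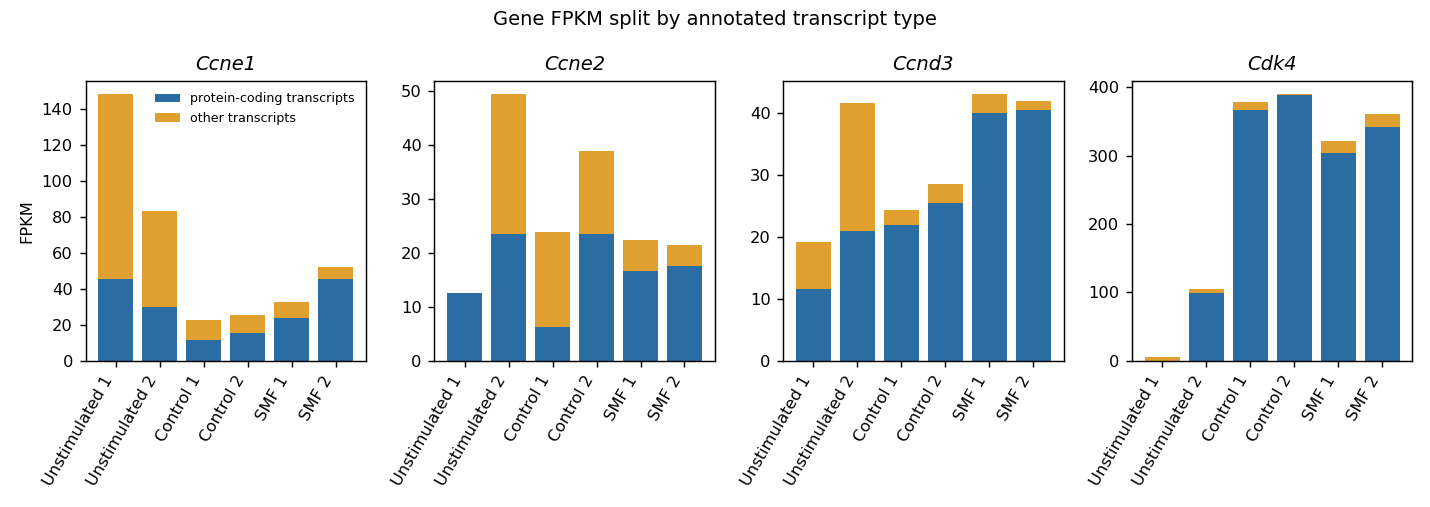
Gene FPKM of *Ccne1*, *Ccne2*, *Ccnd3* and *Cdk4* in the 6 libraries, split into protein-coding transcripts (blue) and all other annotated transcripts (orange), each panel on its own linear axis from 0. In *Ccne1* the orange part dominates both Unstimulated libraries, where coding transcripts make up 30.7% and 35.7%, while *Cdk4* is nearly all coding wherever it is abundant.

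*Ccne2* (ENSMUSG00000028212.16; chromosome 4, 11191351 to 11204779, plus strand) was at 12.5 and 49.4 FPKM in Unstimulated, 23.8 and 38.9 FPKM in Control and 22.4 and 21.3 FPKM in SMF. The Unstimulated pair spanned all other libraries, and both SMF libraries were just below both Control libraries. No comparison called it, with log2 differences of 0.27 (95% interval -1.29 to 1.83) for Control against Unstimulated, -0.19 (-1.75 to 1.37) for SMF against Unstimulated and -0.46 (-2.02 to 1.10) for SMF against Control. The last turned to 0.44 (adjusted p = 0.758 in limma) with coding transcripts alone. A short processed transcript of 418 bases held 17.6 and 12.6 FPKM in Control and 3.91 and 0 FPKM in SMF. *Ints8* lies on the opposite strand and shares 609 exon bases with *Ccne2*. It was at 4.1 and 6.8 FPKM in Unstimulated, 53.2 and 28.7 FPKM in Control and 62 and 63.5 FPKM in SMF.

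*Cdkn1a* encodes p21, an inhibitor of cyclin-CDK complexes that p53 induces and that also rises when lymphocytes are stimulated. *Cdkn1a* (ENSMUSG00000023067.14; chromosome 17, 29090976 to 29100727, plus strand) was at 1.59 and 0 FPKM in Unstimulated, 20.4 and 13.0 FPKM in Control and 52.0 and 67.3 FPKM in SMF. The 3 groups did not overlap, in the order Unstimulated, Control, SMF. *Cdkn1a* rose in Control against Unstimulated by a log2 fold change of 3.43 (SE 0.57, adjusted p = 0.0233 in limma), with 3.04 and 3.81 in the folders of replicates 1 and 2, and in SMF against Unstimulated by 5.22 (SE 0.57, adjusted p = 0.00451 in limma). It rose in SMF against Control by 1.80 (SE 0.57, adjusted p = 0.179 in limma). The last call ended when SMF replicate 1 (1.98), SMF replicate 2 (1.61), Control replicate 1 (2.10) or Control replicate 2 (1.49) was left out, with adjusted p = 0.309 to 0.525 in limma, and with a pseudocount of 0.1 (1.85, adjusted p = 0.478 in limma). The gene *AC167363.2* on the opposite strand shares 273 exon bases with *Cdkn1a*. It was listed at 0 and 2.1 FPKM in Unstimulated, 28.7 and 16.3 FPKM in Control and 48.6 and 62.0 FPKM in SMF, the same order of groups as *Cdkn1a* and levels close to it. Both genes rest on the authors' assignment of reads to strands, and the part of that in the result was not tested.

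*Cdkn1b* encodes p27, the inhibitor typical of resting T cells. *Cdkn1b* (ENSMUSG00000003031.14; chromosome 6, 134920401 to 134925513, plus strand) was at 37.4 and 47.3 FPKM in Unstimulated, 29.0 and 13.2 FPKM in Control and 15.5 and 19.2 FPKM in SMF. Both Unstimulated libraries were above all others, and the SMF pair lay within the range of the Control pair. *Cdkn1b* fell in SMF against Unstimulated by 1.24 on the log2 scale (SE 0.45, adjusted p = 0.0917 in limma). In Control against Unstimulated the log2 difference was -1.06 (SE 0.45, adjusted p = 0.192 in limma), with -0.36 and -1.77 in the folders of replicates 1 and 2. It was called lower with gene TPM (-1.22, adjusted p = 0.154 in limma), when libraries were rescaled to 1 sum over multi-exon genes (-1.21, adjusted p = 0.141 in limma) and without Control replicate 1 (-1.60, adjusted p = 0.115 in limma). SMF and Control differed by -0.18 (95% interval -1.26 to 0.90). The call in SMF ended when either Unstimulated or either SMF library was left out, with log2 values from -1.40 to -1.07 and adjusted p = 0.224 to 0.32 in limma. All of *Cdkn1b* lay in coding transcripts.

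*Cdkn2c* encodes p18, an INK4 inhibitor. *Cdkn2c* (ENSMUSG00000028551.14; chromosome 4, 109660876 to 109667189, minus strand) was listed at 0 in both Unstimulated libraries, and was at 1.18 and 2.71 FPKM in Control and 7.49 and 5.42 FPKM in SMF. The 3 groups did not overlap, in the same order as for *Cdkn1a*. It was called higher in SMF against Unstimulated (adjusted p = 0.0201 in limma) and in Control against Unstimulated (adjusted p = 0.165 in limma); no fold change is given against a group listed at 0. The call in Control ended when either Unstimulated replicate was left out (adjusted p = 0.24 and 0.221 in limma) and without Control replicate 2 (adjusted p = 0.236 in limma). It also ended with a replicate block, whose numbers follow the folders in these groups (adjusted p = 0.225 in limma). SMF exceeded Control by 1.38 (SE 0.59, adjusted p = 0.248 in limma), and its unadjusted p just missed the threshold.

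*Cdkn2d* encodes p19, the other INK4 inhibitor of the set. *Cdkn2d* (ENSMUSG00000096472.2; chromosome 9, 21288410 to 21291407, minus strand) was at 3.89 and 9.46 FPKM in Unstimulated, 4.96 and 6.92 FPKM in Control and 15.1 and 0.846 FPKM in SMF. The SMF pair held both the highest and the lowest of the 6 values and differed by 3.12 on the log2 scale. No comparison called it, with log2 differences of -0.06 (95% interval -2.57 to 2.46) for Control against Unstimulated, -0.39 (-2.91 to 2.12) for SMF against Unstimulated and -0.34 (-2.85 to 2.18) for SMF against Control. The last 2 turned to 1.17 and 1.22 without SMF replicate 2.

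Control against Unstimulated sets cells stimulated in culture for 72 h without magnets against fresh cells, so stimulation and culture cannot be told apart. In it 3 of the 10 genes were called higher (*Cdk4*, *Cdkn1a* and *Cdkn2c*) and 1 lower (*Ccne1*). Over all genes tested 12.3% were called higher and 12.6% lower. At an adjusted p of at most 0.05, 2 of the 10 passed, *Ccne1* and *Cdkn1a*, against 8.48% of all genes. The groups did not overlap, with Control higher, in 3 of the 10 against 24.8% of all genes, and with Control lower in 2 against 26.6%. The median log2 difference of the 10 was 0.12, against -0.05 over all genes, and it does not depend on the value given to *Cdkn2c* so long as that value is above the median. Without Control replicate 2 the number called fell from 4 to 2, *Ccne1* and *Cdkn1a*.

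In SMF against Unstimulated, 4 of the 10 were called higher (*Ccnd2*, *Cdk4*, *Cdkn1a* and *Cdkn2c*) against 22.4% of all genes, and 2 lower (*Ccne1* and *Cdkn1b*) against 14.8%. An adjusted p of at most 0.05 was reached by 4, *Ccnd2*, *Ccne1*, *Cdkn1a* and *Cdkn2c*, against 23.6% of all genes. The groups did not overlap, with SMF higher, in 6 of the 10 against 39.7% and with SMF lower in 2 against 26.0%. The median was 0.94, against 0.27 over all genes. This comparison and the one before it share the Unstimulated libraries. Without SMF replicate 1 the number called fell from 6 to 2, *Cdkn1a* and *Cdkn2c*.

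In SMF against Control, where the field and the folder cannot be told apart, 2 of the 10 were called higher, *Ccnd2* and *Cdkn1a*, against 12.5% of all genes. None was called lower, against 5.72%. None of the 10 reached an adjusted p of at most 0.05, against 0.0267% of all genes, and these 2 had an unadjusted p under 0.05 in limma. SMF lay above Control with no overlap in 6 of the 10 against 37.4%, and below in 2, *Ccne2* and *Cdk4*, against 17.4%. The 6 above were *Ccnd2*, *Ccnd3*, *Cdk6*, *Ccne1*, *Cdkn1a* and *Cdkn2c*. The median was 0.71, against 0.32 over all genes. Scaling matters here: of all genes called, 68.6% were higher in SMF as deposited, 37.8% after a shift of each library to the same median and 45.9% after quantile normalization. After the median shift 1 of the 10, *Cdkn1a*, was called, and after quantile normalization 2. Without either Unstimulated library the count rose to 4, with *Cdk6* and *Cdkn2c* added, and without SMF replicate 1, SMF replicate 2 or Control replicate 1 it was 1, *Ccnd2*.

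**Figure D3:**
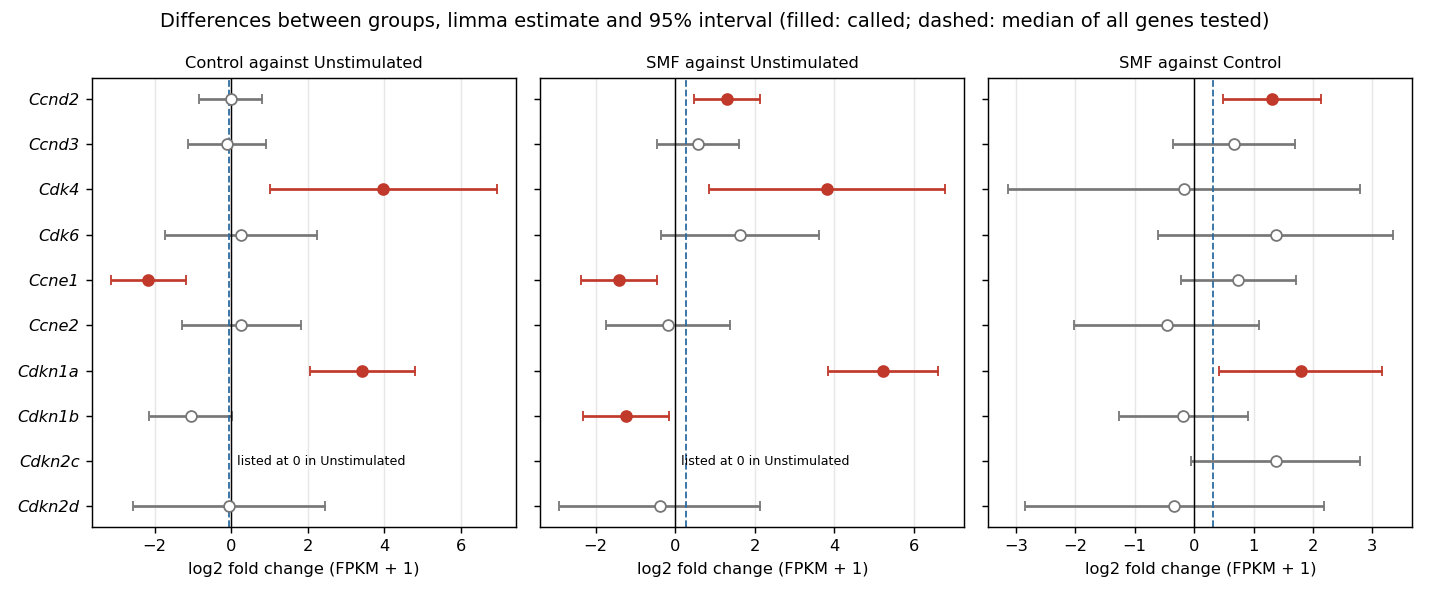
Log2 fold change of FPKM + 1 with its 95% interval from limma for each of the 10 genes in the 3 comparisons, filled red where called, with the median of all genes tested as a dashed line. *Cdkn1a* is called higher in all 3, and *Ccnd2* is called in both comparisons with SMF and lies at -0.01 between Control and Unstimulated. *Cdkn2c* has a note in place of a point where Unstimulated is listed at 0.

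Ratios between a pair of these genes within a library move little with the scaling of that library where both genes are well above 0. They are given as log2 ratios of FPKM + 1 without a test, since groups of 2 cannot give a low exact p. For genes near 0, as *Cdkn1a* and *Cdkn2c* in Unstimulated, the added 1 sets part of the ratio, which then does move with scaling. The ratio of *Cdkn1b* to *Cdkn1a* was 3.89 and 5.59 in Unstimulated, 0.49 and 0.01 in Control and -1.69 and -1.76 in SMF. The order of the inhibitors thus turned over: p27 RNA was above p21 RNA in Unstimulated, level with it in Control and below it in SMF. The ratio of *Cdk4* to *Cdkn1b* was -2.78 and 1.13 in Unstimulated and between 3.66 and 4.79 in the 4 stimulated libraries, where Control and SMF overlapped. *Cdk4* exceeded *Cdk6* by 5.62 and 5.12 in Control and by 3.57 and 4.09 in SMF, without overlap, while Unstimulated held -1.72 and 5.01. *Ccnd3* was below *Ccnd2* in SMF (-0.75 and -0.50) and close to it in Control (0.20 and -0.18) and Unstimulated (-0.31 and 0.51). *Ccne1* exceeded *Ccne2* by 3.47 and 0.74 in Unstimulated and by 0.51 and 1.24 in SMF, and was below it in Control (-0.06 and -0.59). *Cdkn2c* was below *Cdkn2d* everywhere, from -3.39 to -0.92, except in SMF replicate 2 (1.80), the library in which *Cdkn2d* was lowest.

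**Figure D4:**
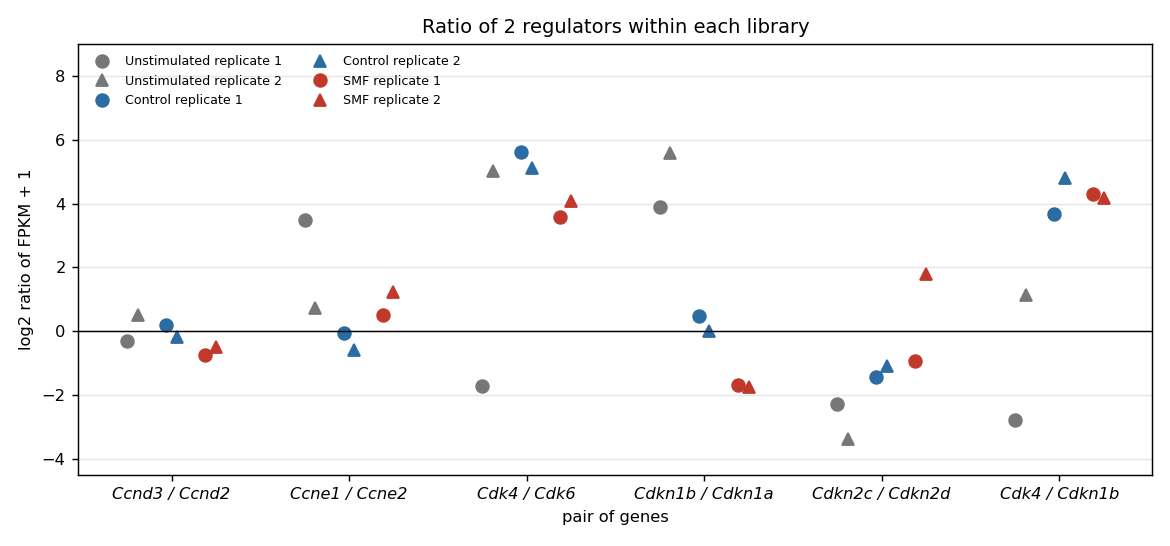
Log2 ratio of FPKM + 1 for 6 pairs of G1 regulators in each library, with circles for replicate 1 and triangles for replicate 2. For *Cdkn1b* over *Cdkn1a* the 3 groups are separate, from 5.59 in Unstimulated replicate 2 to -1.76 in SMF replicate 2, and for *Cdk4* over *Cdk6* the Unstimulated pair lies at -1.72 and 5.01.

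Replicates of the 10 genes were least alike in Unstimulated, where 6 of them differed by at least 2-fold between the pair, against 1 in Control (*Cdkn1b*) and 1 in SMF (*Cdkn2d*). Over all genes tested the share with such a gap was 32.6% in Unstimulated, 32.6% in Control and 19% in SMF.

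The rest of the pathway was taken from lists of 34 other G1/S genes, of which 31 were tested. *Cdkn1c*, *Cdkn2a* and *Cdkn2b*, the other CDK inhibitors, were listed at 0 in all 6 libraries. In Control against Unstimulated 11 of the 31 were called higher and 3 lower, against 12.3% and 12.6% of all genes, with a median of 0.48 against -0.05. In SMF against Unstimulated 16 were called higher and 4 lower, against 22.4% and 14.8%, with a median of 1.23 against 0.27. In SMF against Control 7 were called higher and 1 lower, against 12.5% and 5.72%, with a median of 0.86 against 0.32. An adjusted p of at most 0.05 was reached by 4, 11 and 0 of them. In SMF against Control 8 of the 31 had an unadjusted p under 0.05 in limma, the same 8 that were called.

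Of 10 E2F factors and DP partners, the transcription factors at the end of the pathway, 5 were called higher in Control against Unstimulated, against 12.3% of all genes. In SMF against Unstimulated 6 were called higher, against 22.4%. None was called lower, against 12.6% and 14.8%. With coding transcripts alone, *E2f1* lost its call in Control (1.44, adjusted p = 0.206 in limma). *E2f4* then gained a call in SMF against Unstimulated (1.22, adjusted p = 0.0947 in limma). *E2f8* was at 0.9 and 0 FPKM in Unstimulated, 13.9 and 8.21 FPKM in Control and 24.7 and 16.9 FPKM in SMF. *Tfdp1*, the main DP partner, was at 9.55 and 10.5 FPKM in Unstimulated, 26.8 and 61.6 FPKM in Control and 102 and 117 FPKM in SMF, and was called in all 3 comparisons (1.92, 3.33 and 1.40, the last at an adjusted p of 0.178 in limma). Its coding transcripts alone were listed at 0 in both Unstimulated libraries and in Control replicate 1, at 61.1 FPKM in Control replicate 2 and at 101 and 117 FPKM in SMF, and with them the calls in Control against Unstimulated (adjusted p = 0.435 in limma) and SMF against Control (adjusted p = 0.362 in limma) were lost. *E2f2* rose by 2.06 in Control, and *E2f3*, listed at 0 in both Unstimulated libraries, was at 2.98 and 2.82 FPKM in Control and 8.65 and 6.69 FPKM in SMF. *E2f6*, a repressor of the family, was at 3.58 and 5.01 FPKM in Unstimulated, 0 and 2.87 FPKM in Control and 6.95 and 6.78 FPKM in SMF. It was called higher in SMF against Control by 2 (adjusted p = 0.212 in limma), and the log2 difference of Control from Unstimulated was -1.41 (adjusted p = 0.285 in limma), without overlap. With coding transcripts alone, at 3.81 and 0 FPKM in SMF and 0 and 0.18 FPKM in Control, the call was lost (1.02, adjusted p = 0.495 in limma).

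Of the pocket proteins, which hold E2F factors in check, *Rb1* and *Rbl2* were called lower in both stimulated groups. The remaining one, *Rbl1*, was at 1.48 and 4.66 FPKM in Unstimulated, 3.29 and 8.02 FPKM in Control and 15.1 and 14.3 FPKM in SMF. It was called higher in SMF against Unstimulated (2.07, adjusted p = 0.0562 in limma). That call was lost with coding transcripts alone (2, adjusted p = 0.142 in limma). *Rbl2* (p130), typical of quiescent cells, was at 34.6 and 22.8 FPKM in Unstimulated, 10.7 and 6.02 FPKM in Control and 12.0 and 6.82 FPKM in SMF. Its coding transcripts alone were at 11.6 and 8.46 FPKM in Unstimulated, 9.02 and 4.18 FPKM in Control and 8.69 and 6.82 FPKM in SMF. With them *Rbl2* lost its calls in Control (-0.6, adjusted p = 0.478 in limma) and in SMF (-0.33, adjusted p = 0.646 in limma). *Rb1* fell, with a log2 fold change of -3.18 in Control (adjusted p = 0.00707 in limma) and -3.77 in SMF (adjusted p = 0.00302 in limma), but nearly all of it was a processed transcript of 408 bases, at 571.9 and 415 FPKM in Unstimulated and 26 to 58.5 FPKM elsewhere. Its coding transcript was at 6.9 and 4.7 FPKM in Unstimulated, 3.2 and 4.6 FPKM in Control and 8.1 and 8 FPKM in SMF, and with coding transcripts alone *Rb1* was called in no comparison (log2 differences of -0.47, 0.43 and 0.90).

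Among the genes of the SCF ubiquitin ligase that degrade CDK inhibitors and cyclin E, 4 of 6 were called higher in SMF against Control, against 12.5% of all genes. With coding transcripts alone, a sum chosen after the values had been seen, 1 of these 4 stayed called, *Skp1a* (1.88, adjusted p = 0.247 in limma). *Skp2*, which targets p27, was at 7.48 and 5.32 FPKM in SMF against 0 and 0.95 FPKM in Control (2.39, SE 0.67, adjusted p = 0.167 in limma), and its coding transcripts were at 5.88 and 1.09 FPKM in SMF (1.44, adjusted p = 0.368 in limma). Its cofactor *Cks1b* was at 78.4 and 52.2 FPKM in SMF, 8.7 and 15.8 FPKM in Control and 6.47 and 0 FPKM in Unstimulated. *Cks1b* was called higher in SMF by 2.35 against Control (adjusted p = 0.23 in limma) and by 4.57 against Unstimulated (adjusted p = 0.0206 in limma). *Fbxw7*, which targets cyclin E, was at 9.36 and 4.74 FPKM in SMF, 1.08 and 2.4 FPKM in Control and 9.59 and 4.48 FPKM in Unstimulated. *Fbxw7* was called higher in SMF against Control (1.54, adjusted p = 0.228 in limma) and lower in Control against Unstimulated (-1.52, adjusted p = 0.176 in limma). The latter call was also lost with coding transcripts alone (-1.52, adjusted p = 0.238 in limma). *Ccnd1*, the third D-type cyclin, ran the other way, at 12.2 and 11.5 FPKM in Unstimulated, 8.33 and 5.94 FPKM in Control and 1.29 and 3.1 FPKM in SMF. *Ccnd1* was called lower in SMF by -2.07 against Unstimulated (adjusted p = 0.0316 in limma) and by -1.39 against Control (adjusted p = 0.203 in limma). Of 5 upstream regulators, 3 were called higher in SMF against Unstimulated, against 22.4% of all genes. These were *Myc* (1.24, adjusted p = 0.092 in limma), *Trp53* (1.46, adjusted p = 0.0965) and *Mdm2* (1.16, adjusted p = 0.101). *Myc* and *Trp53* were also called higher in Control (adjusted p = 0.183 and 0.178 in limma). With coding transcripts, only the *Myc* call in SMF stayed of these. *Foxo1*, a factor of resting T cells, was called lower in SMF against Unstimulated by -1.16 (adjusted p = 0.126 in limma). The count of other G1/S genes called fell from 14 to between 7 and 9 in Control against Unstimulated without Unstimulated replicate 1, either SMF library or either Control library, and from 20 to 11 in SMF against Unstimulated without Unstimulated replicate 1 or SMF replicate 1. In SMF against Control it fell from 8 to 0 without SMF replicate 1, to 3 without SMF replicate 2 and to 1 without Control replicate 1, and was 4 with coding transcripts alone.

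**Figure D5:**
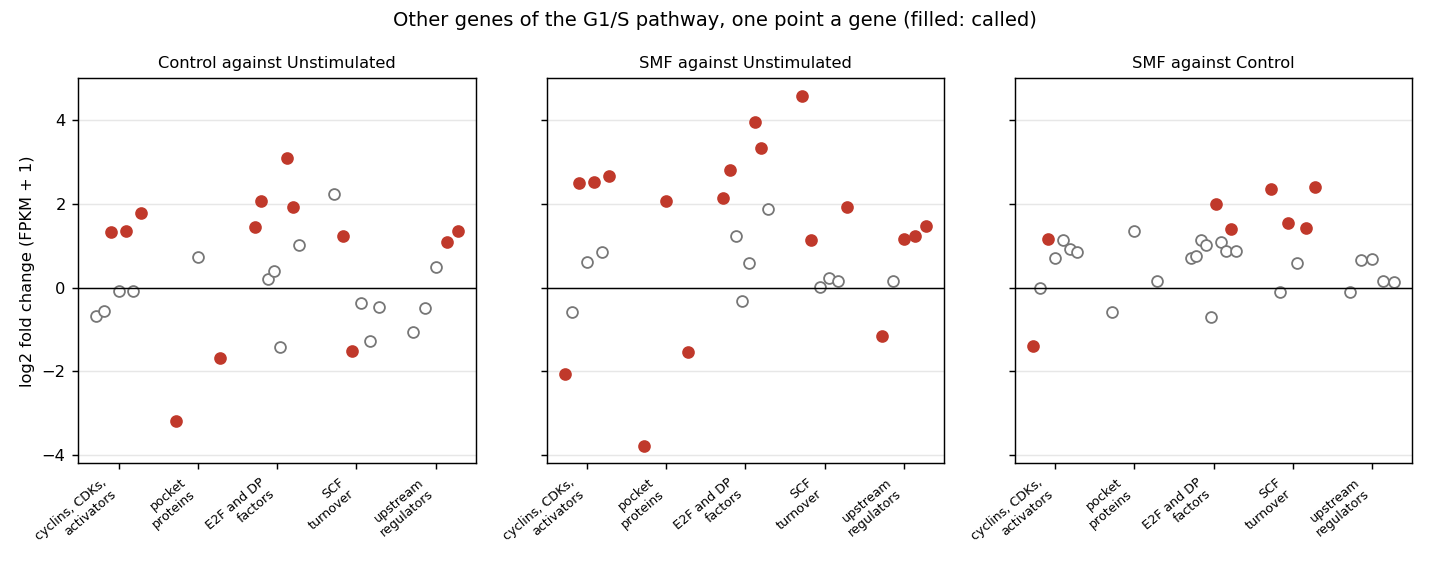
Log2 fold change of FPKM + 1 for the other tested G1/S genes in 5 lists and 3 comparisons, 1 point a gene, filled red where called; genes listed at 0 in the reference group are left out. Most E2F and DP points lie above 0 in every panel, *Rb1* is the lowest point of both comparisons with Unstimulated at -3.18 and -3.77, and the SCF genes hold 4 of the filled points in SMF against Control.

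The genes of S phase and mitosis, which lie downstream of E2F, were higher in the stimulated groups. Of 16 such genes, 15 were called higher in Control against Unstimulated, 16 in SMF against Unstimulated and 5 in SMF against Control, against 12.3%, 22.4% and 12.5% of all genes, with medians of 2.62, 3.56 and 0.85. *Pcna*, the clamp of the replication fork, was at 32.1 and 39.3 FPKM in Unstimulated, 71.2 and 107 FPKM in Control and 235 and 239 FPKM in SMF, and *Top2a*, a topoisomerase of dividing cells, was at 0.34 and 9.97 FPKM in Unstimulated, 143 and 112 FPKM in Control and 213 and 210.03 FPKM in SMF. Of the 10 G1 regulators, *Cdkn1a* and *Cdkn2c* showed the same order of groups as *Pcna*.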

How the data were processed

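RNA was measured in 6 libraries of CD8+ T cells from mouse spleen, 2 for each of 3 groups that the labels give. Per the file headers and the submitters' processing notes, reads were trimmed with Trimmomatic 0.36, aligned with HISAT2 to mm10 (GRCm38) and quantified by the authors with StringTie 1.3.5 on GENCODE M19, for annotated transcripts only and with reads treated as stranded. The deposited FPKM values of each transcript were summed here per gene. Another deposited file, with 3 columns of gene values named after no sample, was not used. Transcript types came from GENCODE M21, which matched 137654 transcripts and did not match 113.

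Values of log2(FPKM + 1) were fitted with limma 3.58.1 (R 4.3.3) for the 14991 genes that averaged 1 FPKM or more, with a variance trend and without a replicate term. The fit was tested on simulated data. Sequences and annotations were handled in Python 3.11.15. Covered bases, the deposited coverage times transcript length, gave 64.4 to 258.6 Mb a library. Replicate differences of Unstimulated and Control correlated at 0.10, of Unstimulated and SMF at 0.03 and of Control and SMF at 0.02 over these genes, so the numbers were not taken to pair libraries.

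The 10 genes and the gene lists were chosen with earlier results of these data known. The text names all 10, of the other G1/S genes those called with the largest changes (at most 4 in each direction per comparison), the 2 most abundant S phase and mitosis genes, defining markers, and the 3 genes most like *Cdk4* and *Cdkn1b*. *Rb1*'s transcripts, *Tfdp1*'s other comparisons and the coding sums of *Rbl1*, *Rbl2*, *E2f1*, *E2f4*, *Fbxw7* and the upstream regulators were added after their values were seen. The values of *Rbl1*, *Myc*, *Trp53*, *Mdm2*, *Foxp3*, *Zbtb7b*, *Alas2* and *Cd68* were also added then. The settings varied were the pseudocount, the filter, the scaling, TPM in place of FPKM, the variance model, the groups fitted, a replicate block, the transcripts summed and the library left out.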

Additional observations from a re-analysis of the deposited data

How the results depend on the processing

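The number of the 10 genes called in SMF against Control was 2 and became 1 with a pseudocount of 0.1, 1 after the median shift and 4 with protein-coding transcripts only. It ran from 1 to 4 over the libraries left out, against 2 to 4 for Control against Unstimulated and 2 to 6 for SMF against Unstimulated. The replicate block, which the numbers do not justify by the check above, gave 3, 6 and 2 of the 10 called and 3668, 5577 and 2710 of all genes, and it ended the call of *Cdkn2c* in Control (adjusted p = 0.225 in limma) and no other call of the 10. All genes called in SMF against Control ranged from 1367 to 3379 over the libraries left out, with 1367 without SMF replicate 1, 1637 without SMF replicate 2 and 1768 without Control replicate 1 against 2725 with all. Of the other G1/S genes called, SMF against Control had 5 with a mean of at least 5 FPKM, 3 after the median shift, 3 after quantile normalization, 5 with only the 2 groups fitted and 4 with protein-coding transcripts only, and from 0 to 6 over the libraries left out. Control against Unstimulated had 7 with only the 2 groups and 7 with coding transcripts, and 7 to 10 over the libraries left out, and SMF against Unstimulated had 11 to 18.

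Directions turned only in differences that were not called. For Control against Unstimulated, *Ccnd2* became 0.07 and *Cdkn2d* 0.03 after the median shift, *Cdkn2d* 0.03 after quantile normalization, and *Ccnd3* 0.56 and *Ccne2* -0.45 with coding transcripts. Over the libraries left out, *Ccnd2* ran from -0.31 to 0.29, *Ccnd3* from -0.64 to 0.44, *Ccne2* from -0.68 to 1.22, *Cdk6* from -0.99 to 1.51 and *Cdkn2d* from -0.61 to 0.49. In SMF against Unstimulated *Ccne2* ran from -1.14 to 0.76 and *Cdkn2d* from -1.95 to 1.17. In SMF against Control *Cdkn1b* ran from -0.72 to 0.37 and *Cdkn2d* from -1.90 to 1.22, *Cdkn1b* was 0.20 with the highest transcript only, and *Ccne2* was 0.44 with coding transcripts. The mean log2 ratio of *Cdkn1b* to *Cdkn1a* in Unstimulated became 6.68 with a pseudocount of 0.1, and that of *Cdkn2c* to *Cdkn2d* became -5.95 in Unstimulated and -1.65 in Control with it and -3.76 in Unstimulated with gene TPM. *Cdk4* lost its call in both comparisons with Unstimulated when only the 2 groups were fitted (3.98 and 3.81, adjusted p = 0.244 and 0.17 in limma) and when coding transcripts alone were summed (5.25 and 5.02, adjusted p = 0.244 and 0.183 in limma). Of all values of single genes under the alternatives, 475 kept their direction and call, 32 lost a call, 18 gained one and 22 turned. The causes were not tested. With 2 libraries a group, depth from 64.4 to 258.6 Mb and no counts, a gene listed at 0 may be below what a library could show.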

Other observations

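For *Cdk4* and *Cdkn1b*, the genes with the most similar profile were sought among the 9393 genes averaging 5 FPKM or more, by the root mean square difference of log2(FPKM + 1) centred over the 6 libraries. *Cdk4* had few neighbours: 6 genes lay within 0.5, the nearest being *Phykpl*, a lyase of hydroxylysine breakdown (0.16), *1700110K17Rik* (0.24) and *Psmb2*, a proteasome subunit (0.28). *Phykpl* was at 60.2 and 1181 FPKM in Unstimulated, 3362 and 3343 FPKM in Control and 2821 and 3153 FPKM in SMF. These genes were picked for their likeness to *Cdk4* over the 6 libraries, which includes the low value of Unstimulated replicate 1. *Psmb2* was listed at 0 in Unstimulated replicate 1 and was at 11.4 FPKM in replicate 2 and 32.7 to 58.3 FPKM in the stimulated libraries. *Cdkn1b* had 705 neighbours within 0.5, the nearest being *Spata6* (0.13), *Gm17112* (0.15) and the kinase gene *Tnik* (0.16). *Tnik* was at 13.5 and 18.4 FPKM in Unstimulated, 7.7 and 4.6 FPKM in Control and 5 and 6.9 FPKM in SMF. A likeness over 6 libraries that share 3 groups and 3 folders is a description and carries no test.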
